A study of Homo sapiens with 3 samples.

Results

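The nuclear genes of oxidative phosphorylation were followed on 3 culture substrates in HT29, a widely used human cell line derived from a colon adenocarcinoma. Members were the protein-coding genes whose symbols start with NDUFA, NDUFB, NDUFC, NDUFS, NDUFV, UQCR, COX4, COX5, COX6, COX7, COX8 or ATP5, together with SDHA, SDHB, SDHC, SDHD and CYC1, and assembly factors and pseudogenes were left out. Of 89 coding genes that meet this rule, 88 had a probe that could be named, among 21610 genes on the array. They comprised 37 genes of complex I, 4 of complex II, 9 of complex III, 19 of complex IV and 19 of complex V. NDUFA4 and NDUFA4L2 carry newer symbols today and were counted under complex IV, where NDUFA4 sits.

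HT29 cells came from tissue culture polystyrene plates (TCP), from chitosan membranes (CS) and from chitosan membranes with grafted hyaluronan (CSHA), with no other treatment or genetic change given. RNA from each substrate was labelled in 1 colour and hybridized to 1 array, and the 3 arrays lay on the same slide. With 1 array per substrate no difference has a replicate check, so no p-value is given and every difference between substrates also holds the difference between the cultures. Between 48.6% and 51.1% of the probes on an array were well above background, and 0 spots were saturated.

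Oxidative phosphorylation is the last stage of respiration in the inner mitochondrial membrane. Complexes I and II feed electrons from NADH and succinate to coenzyme Q, complex III passes them to cytochrome c, and complex IV hands them to oxygen, while complex V uses the proton gradient to make ATP. A few core subunits of complexes I, III, IV and V are encoded by mitochondrial DNA, and all the others are made from nuclear genes and imported; the mitochondrially encoded subunits had no named probe and were not analysed here.

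A level is the log2 processed signal of the gene's brightest probe minus the 75th percentile of its array, and a difference is one level minus another of the same probe. Of the 88 members, 82 were well above background on all arrays, 4 on none, and COX4I2 and COX6A2 on some. Probes printed on 10 spots gave a spread among spots, with a median SD of 0.05 on TCP, 0.05 on CS and 0.06 on CSHA. For an unchanged probe of median SD, 95% of differences would fall within a limit around 0 on the log2 scale. It was 0.14 for CS against TCP, 0.15 for CSHA against TCP and 0.14 for CSHA against CS. Probes with a larger SD would pass it more often, and the 95th percentile of the SD was 0.17, 0.15 and 0.18 on TCP, CS and CSHA. This limit covers the spots of an array only and not the spread between cultures. All 12 colon epithelial markers were well above background on each array. Of 8 stromal markers, 2 were above background on TCP, 0 on CS and 1 on CSHA, with a summed signal between 52.5 and 125, and COL1A1, COL1A2, COL3A1, DCN and LUM were on none. Of 7 immune markers on the array, 4, 4 and 5 were above background, with a summed signal of 1161, 1794 and 2020 on TCP, CS and CSHA. The part of such cells in the results was not tested, and in RNA from whole cultures fewer cells of a type and less RNA per cell cannot be told apart.

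On CS, most nuclear OXPHOS genes lay slightly above TCP, and none moved far. The median difference was 0.14, with an interquartile range of 0.06 to 0.22, whereas the median over all 14462 genes compared was 0.04, with a range of -0.14 to 0.21. Of 83 members compared, 68 were higher and 15 lower, which is 81.9% higher against 56.8% of all genes. Past the spread among spots were 43 members higher, or 51.8%, and 4 lower, or 4.82%, against 34.4% and 25.3% of all genes. At 1.5-fold 0 members were higher and 0 lower, against 4.11% and 5.03% of all genes, and at 2-fold again 0 and 0, against 1.36% and 1.92%. The members are bright, with a median signal of 25993 against 904 for the genes measured on all arrays. Of those genes, 96.0% were dimmer than the member at the median. Over genes well above background on all arrays, the 1.5-fold shares were 2.81% and 2.90% on CS, and 9.85% and 10.4% on CSHA against TCP. The part of brightness in the narrow range of the members was not tested.

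On CSHA, the members spread in both directions and their median lay near that of all genes. The median difference from TCP was 0.08, with an interquartile range of -0.07 to 0.23, and the median over all 14624 genes was 0.13, with a range of -0.20 to 0.37. Of 84 members compared, 55 were higher, or 65.5%, against 61.7% of all genes, and 29 were lower. Past the spread among spots were 32 members higher, or 38.1%, and 19 lower, or 22.6%, against 47.3% and 27.7% of all genes. At 1.5-fold, 1 member was higher, NDUFV1, and 6 were lower, or 7.14%, against 11.5% and 11.2% of all genes. The lower members included ATP5F1B, CYC1, ATP5F1A, NDUFS3 and NDUFS6, and ATP5F1B alone passed 2-fold. These counts depended on the scaling: with the arrays scaled to spike-in probes, 32 of 83 members were 1.5-fold higher and ATP5F1B alone was 1.5-fold lower. All genes moved as well, with 48.0% of them 1.5-fold higher and 3.79% lower under that scaling. Without spike-in scaling, 3.02% of all genes were 2-fold higher and 3.98% lower on CSHA.

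Between the membranes, CSHA was a little below CS for these genes, at a median of -0.04 against 0.07 over all 14597 genes. Of 83 members, 34 were higher on CSHA, or 41.0%, and 49 lower, or 59.0%, against 58.5% and 41.5% of all genes. Past the spread among spots 6 were higher and 28 lower, or 7.23% and 33.7%, against 40.1% and 26.3% of all genes. At 1.5-fold 1 member was higher, the dim COX4I2 by a bound, and 4 were lower, NDUFS3, CYC1 and ATP5F1B among them, against 7.68% and 7.33% of all genes. At 2-fold ATP5F1B alone was lower and 0 members were higher, against 2.15% and 2.27%. The 3 comparisons share arrays pairwise and give no independent support to each other. When the arrays were scaled to 7 spike-in probes instead, the median of all genes moved up by 0.44 for CSHA against TCP and by 0.39 for CSHA against CS, and the members' medians became 0.52 and 0.34, while their distance from all genes stayed at -0.05 and -0.11. A sign on CSHA is therefore relative to the bulk of the array. Members below TCP under that scaling too included ATP5F1B, CYC1, ATP5F1A, NDUFS3, NDUFS6, NDUFS7 and NDUFA9.

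**Figure D1:**
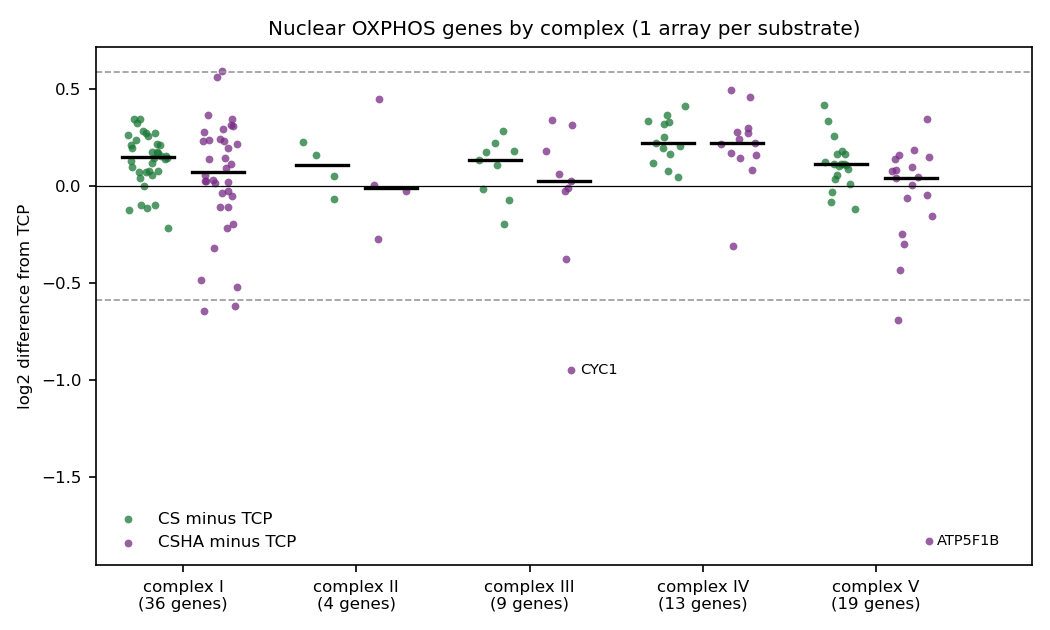
Log2 difference from TCP (vertical axis) of 81 of the 82 members measured on all arrays, by complex (horizontal axis), for CS in green and CSHA in purple, with 1 array per substrate. Black bars are medians of the points and dashed lines mark 1.5-fold; the CS points stay inside the dashed lines, and of the CSHA points ATP5F1B and CYC1 lie lowest.

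Complex I is the entry point for electrons from NADH. The median difference of its 37 genes was 0.15 for CS and 0.05 for CSHA. On CS 30 were higher and 7 lower, against 56.8% and 43.2% of all genes, and the range ran from -0.22 for NDUFB7, an accessory subunit of the membrane arm, to 0.35 for NDUFA5, an accessory subunit of the arm in the matrix. NDUFB7 had levels of 3.76, 3.54 and 3.43 on TCP, CS and CSHA, and NDUFA5 had 3.62, 3.96 and 3.93. Both membranes thus lay on the same side of TCP for each of these genes, though NDUFB7 on CSHA came above TCP under spike-in scaling.

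On CSHA the genes of the 7 nuclear core subunits of complex I, which carry the cofactors and the catalysis, were split. NDUFV1, which holds the flavin that accepts electrons from NADH, had levels of 5.79 on TCP, 6.03 on CS and 6.39 on CSHA, or 1.51-fold higher on CSHA than on TCP. That difference of 0.59 was 0.53 under quantile normalization and 0.54 with the percentile over probes well above background, both under 1.5-fold. The other core genes of the NADH-oxidizing module, NDUFV2 and NDUFS1, which carry iron-sulfur clusters, were higher on CSHA by 0.21 and 0.34. CSHA was the highest of the arrays for each of these genes.

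NDUFS3, a core subunit of the module that passes electrons to coenzyme Q, had levels of 4.85 on TCP, 5.07 on CS and 4.21 on CSHA, which made CSHA 1.56-fold lower than TCP and 1.81-fold lower than CS. NDUFS7, which holds the last iron-sulfur cluster before coenzyme Q, had levels of 4.29, 4.19 and 3.77, a difference of -0.52 on CSHA. CSHA was the lowest array in each case. NDUFS8, another core gene of this module, differed from them with levels of 5.54, 5.70 and 5.83. These module groups were formed after the values were seen and are a description.

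Among the 30 accessory genes of complex I the median on CSHA was 0.04, from -0.62 for NDUFS6 to 0.56 for NDUFB10. NDUFS6, a small zinc-binding subunit near the NADH-oxidizing module, was printed on 10 spots of each array, with mean levels of 5.95 ± 0.03 on TCP, 5.83 ± 0.02 on CS and 5.33 ± 0.02 on CSHA (SD over spots, n = 10 spots). No CSHA spot reached the spots of the other arrays, although spots repeat 1 RNA sample and are not replicate cultures. NDUFA9, an accessory subunit near the coenzyme Q site, had levels of 3.23, 3.31 and 2.75, and NDUFB10, an accessory subunit of the membrane arm, had 5.73, 5.90 and 6.29. NDUFS5, also an accessory subunit of the membrane arm, printed on 10 spots, was highest on CS, with 7.59 ± 0.03, 7.80 ± 0.03 and 7.48 ± 0.05 (SD over spots, n = 10 spots).

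**Figure D2:**
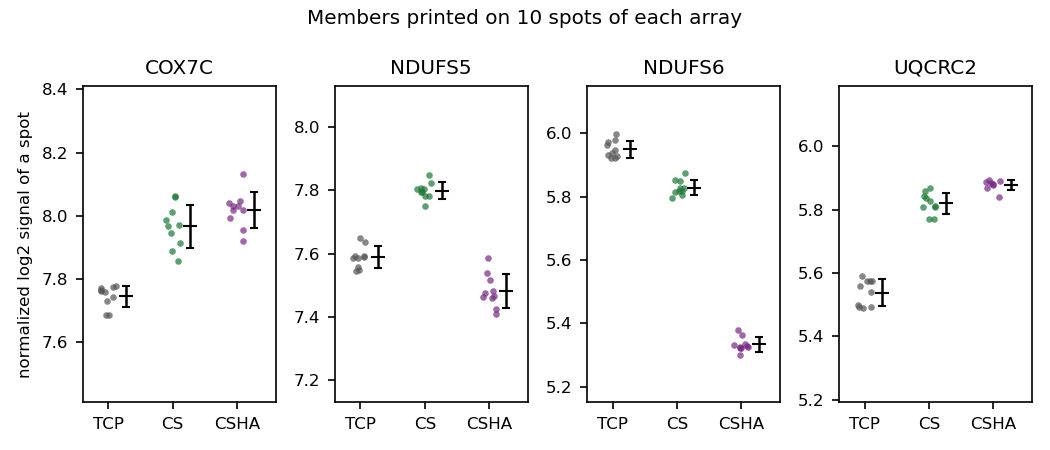
Normalized log2 signal of every spot (vertical axis) on each array (horizontal axis) for the 4 members printed on 10 spots, with the mean and SD over spots as black bars; 8 spots were left for UQCRC2 on CSHA. The vertical axes span the same width, and the NDUFS6 spots on CSHA lie near 5.33, below all spots of TCP and CS.

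Complex II, succinate dehydrogenase, is also an enzyme of the tricarboxylic acid cycle and is encoded by nuclear genes alone. SDHB, the iron-sulfur subunit, had levels of 4.79 on TCP, 4.85 on CS and 4.52 on CSHA, a difference of -0.27 on CSHA that turned to 0.17 under spike-in scaling. SDHC and SDHD anchor the enzyme in the membrane. SDHC had levels of 4.79, 5.02 and 5.24, and SDHD had 3.46, 3.62 and 3.44.

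The flavoprotein gene SDHA depended on the probe. Its brightest probe had levels of 6.45, 6.38 and 6.45 on TCP, CS and CSHA. The other 3 probes, all well above background on every array, gave -0.21, -0.48 and -0.31 on CS and -0.94, -1.52 and -1.09 on CSHA. SDHA has known pseudogene copies, and which transcripts each probe detects was not tested, so the value of SDHA is uncertain. SDHC had 2 probes at 0.45 and 0.46 on CSHA and another at -0.51.

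Complex III carries electrons from coenzyme Q to cytochrome c, and the median difference of its 9 genes was 0.13 for CS and 0.02 for CSHA. CYC1, the cytochrome c1 subunit that passes electrons on, was lowest on both membranes, with levels of 5.42 on TCP, 5.23 on CS and 4.48 on CSHA, or 1.93-fold lower on CSHA than on TCP. UQCRFS1, the Rieske iron-sulfur subunit and the other nuclear catalytic gene, had levels of 6.50, 6.48 and 6.48, differences smaller than the spread among spots.

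The core genes UQCRC1 and UQCRC2 differed from each other on CSHA. UQCRC1 had levels of 4.19 on TCP, 4.30 on CS and 3.82 on CSHA, though its difference of -0.38 on CSHA became 0.06 under spike-in scaling. UQCRC2 was the highest of the complex on both membranes, with 5.54 ± 0.04 on TCP and 5.82 ± 0.03 on CS (SD over spots, n = 10 spots) and 5.88 ± 0.02 on CSHA (SD over spots, n = 8 spots). Differences of the 5 accessory genes lay between -0.07 and 0.22 for CS and between -0.01 and 0.31 for CSHA.

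Complex IV is cytochrome c oxidase, and its 19 genes had a median difference of 0.21 over the 14 compared for CS and 0.21 over the 15 compared for CSHA. Its catalytic core is mitochondrially encoded, so the nuclear members are accessory subunits. All 11 ubiquitous accessory genes were higher on CS, from 0.04 for COX8A to 0.36 for COX5B, with a median of 0.22, against 56.8% of all genes higher. On CSHA 10 of the 11 were higher, with a median of 0.21, against 61.7% of all genes. COX5B, a zinc-binding subunit on the matrix side, had levels of 5.98, 6.35 and 6.48 on TCP, CS and CSHA, and was 1.41-fold higher on CSHA than on TCP. COX7C, printed on 10 spots, had 7.75 ± 0.03, 7.97 ± 0.07 and 8.02 ± 0.06 (SD over spots, n = 10 spots). The exception was COX4I1, the main isoform of a subunit known to bind ATP, with levels of 6.32, 6.40 and 6.01 and a difference of -0.31 on CSHA that became 0.12 under spike-in scaling.

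Several subunits of complex IV exist as ubiquitous and tissue- or condition-specific isoforms, and the ubiquitous forms were measured on all arrays. COX4I2, the isoform of lung and of low oxygen, showed signals of 17.2, 17.5 and 25.8 in the order TCP, CS and CSHA. It was well above background on CSHA alone, with bounds of 1.13-fold above TCP and 1.53-fold above CS. Both bounds are uncertain, since its signal came from 1 spot and lay close to 22.6, the lowest signal well above background on CSHA. COX6A1 had levels of 8.25, 8.41 and 8.53, while its heart and muscle isoform COX6A2 was the lowest gene of the complex on CS at -0.39, with signals of 27.5, 25 and 20.4, and was not well above background on CSHA. COX6B1 had levels of 7.11, 7.32 and 7.33. Its testis isoform COX6B2 was measured on all arrays and was the highest gene of the complex on CS at 0.41. The brightest COX6B2 probe had levels of 3.31, 3.73 and 3.77 on TCP, CS and CSHA. The other COX6B2 probe was far dimmer, with levels of -3.49, -3.08 and -2.80, though still well above background. Which transcripts each of them detects was not tested, so how strongly COX6B2 was expressed is uncertain.

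COX7A2 had levels of 7.12, 7.46 and 7.34 on TCP, CS and CSHA, and its muscle isoform COX7A1 was not well above background on any array. The same held for COX7B2 and COX8C, which are known from testis, and for NDUFA4L2, a hypoxia-induced relative of NDUFA4. NDUFA4 itself had levels of 6.99, 7.24 and 7.07. COX7A2L, which joins complexes III and IV in supercomplexes, had 5.02, 5.22 and 5.32 with its brightest probe and -0.14 on CSHA with its second. A relative outside the rule, COXFA4L3, which can take the place of NDUFA4, was picked after its values were seen. Its signals were 184 on TCP, 608 on CS and 661 on CSHA, differences of 1.47 and 1.91, with ranges of 1.18 to 1.52 and 1.58 to 2.35 over the alternative settings. It had 1 probe, and the members of complex IV ranged from -0.39 to 0.41 for CS and from -0.31 to 0.49 for CSHA.

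Complex V, the ATP synthase, split by part of the enzyme on CSHA. The catalytic F1 head and central stalk are built from the products of 5 genes, with median differences of -0.03 for CS and -0.44 for CSHA, and 4 of the 5 were lower on CSHA past the spread among spots, against 27.7% of all genes. Under spike-in scaling 2 of these 4, ATP5F1C and ATP5F1E, were no longer lower. ATP5F1B, the catalytic beta subunit, had levels of 6.13, 6.05 and 4.30 on TCP, CS and CSHA, and was 3.56-fold lower on CSHA than on TCP and 3.36-fold lower than on CS. ATP5F1A, the alpha subunit that alternates with beta in the head, had levels of 6.39, 6.28 and 5.70, or 1.62-fold lower on CSHA than on TCP. TCP and CS lay close together for both genes, and CSHA stood apart.

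ATP5F1C, the gamma subunit that turns within the head, had levels of 4.45 on TCP, 4.56 on CS and 4.01 on CSHA. ATP5F1E, the small epsilon subunit, had 8.81, 8.79 and 8.57. Their differences on CSHA under that scaling became 0.00095 and 0.19. ATP5F1D, the delta subunit, was level, with 4.64, 4.68 and 4.68.

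The peripheral stalk, which holds the head still, was higher in 4 of 4 genes on both membranes, against 56.8% and 61.7% of all genes. Its medians were 0.17 and 0.14, the latter near the 0.13 of all genes on CSHA. ATP5PD was the highest of the complex on CSHA, with levels of 7.16 on TCP, 7.32 on CS and 7.50 on CSHA. Among the genes of the rotating c ring, ATP5MC1 had levels of 5.37, 5.49 and 5.08, and its difference on CSHA became 0.14 under spike-in scaling, while ATP5MC2 and ATP5MC3 lay at 0.16 and 0.00 on CSHA. Differences of the 6 membrane accessory genes spanned 0.01 to 0.42 for CS and -0.15 to 0.14 for CSHA. ATP5MJ marked the top of that range on CS and the bottom on CSHA, with levels of 3.82, 4.24 and 3.67, though its difference on CSHA became 0.28 under spike-in scaling. ATP5MGL, a near copy of ATP5MG, cannot be told apart from it with certainty. ATP5IF1, the inhibitor of the enzyme, had levels of 7.89, 8.05 and 8.03.

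**Figure D3:**
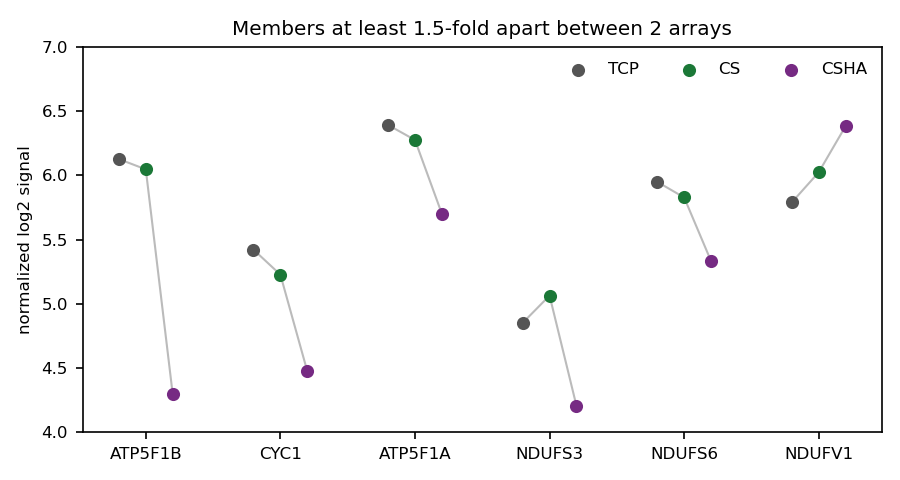
Normalized log2 signal (vertical axis) of 6 members measured on all arrays that differed at least 1.5-fold between arrays, as 1 point per array for TCP, CS and CSHA, joined by lines. CSHA is the lowest point for the first 5 genes, with ATP5F1B at 4.30, and the highest for NDUFV1, which stayed under 1.5-fold with quantile normalization.

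ATP5F1B, CYC1, ATP5F1A, NDUFS3 and NDUFV1 were each read from 1 spot of an array. These genes and NDUFS6 had 1 probe each. Where a gene had more, the probes could be compared: in 18 members with at least 2 measured probes, the median gap between the brightest and the next probe was 0.07 on CS, 0.23 on CSHA and 0.17 between the membranes, against 0.17, 0.32 and 0.26 over 3500 genes. Opposite signs past the spread among spots occurred for NDUFA10 and SDHC on CS, for SDHC on CSHA, and for NDUFC2, SDHC and UQCRB between the membranes. NDUFA10, an accessory subunit of complex I, had 0.33 on CS with its brightest probe and -0.34 with the other. UQCRB, an accessory subunit of complex III, had 0.06 and 1.06 on CSHA with its probes, the latter from signals of 103, 219 and 204. NDUFC2, in the membrane arm of complex I, gave -0.28 and 0.15 between the membranes.

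**Figure D4:**
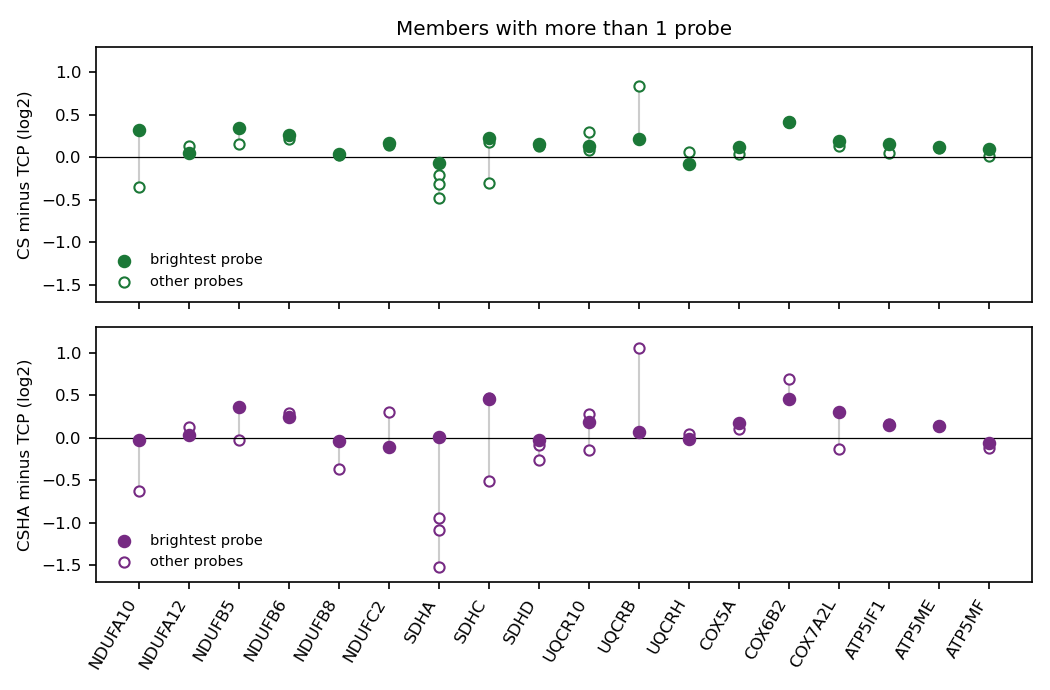
Log2 difference from TCP (vertical axes; CS above, CSHA below) for each probe of the 18 members with more than 1 probe (horizontal axis), with the brightest probe filled and the others open. On CSHA the brightest SDHA probe lies at 0.01 and the other 3 between -1.52 and -0.94.

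Dimmer members held most of the lower values on CSHA. Signal was taken from the array outside each comparison, a choice made after the values were seen, and the 82 members measured on all arrays were divided at its median. By the CS signal, 15 of the 41 dimmer members, or 36.6%, were lower on CSHA than on TCP past the spread among spots. Of the 41 brighter members 3 were, or 7.32%, and of all genes 27.7%. The median differences were 0.02 for the dimmer and 0.14 for the brighter members. By the CSHA signal, the dimmer and brighter members differed from TCP on CS by medians of 0.12 and 0.15. On CS, 3 of the dimmer and 0 of the brighter were lower past that spread, against 25.3% of all genes. The part of signal strength in the differences was not tested.

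Promoters were read for members that moved most, since nuclear respiratory factor NRF1, ETS proteins such as GABP and the factor YY1 are known to bind many promoters of these genes. RefSeq windows on GRCh38.p14, from 250 bases before to 50 after a gene start, matched 72 of the 88 members in 86 windows, as some genes have several starts. COX5B, the highest gene of complex IV on CSHA, stayed under 1.5-fold and was added because of its motifs. The sequences printed, for COX5B and the matched members past 1.5-fold on CSHA, are the 250 bases before the first listed start. Each is given 5′ to 3′ on the gene's strand. They come from chr11:47578824-47579073 on the plus strand for NDUFS3, chr5:1801157-1801406 plus for NDUFS6, chr11:67606686-67606935 plus for NDUFV1, chr18:46104228-46104477 minus for ATP5F1A and chr2:97645812-97646061 plus for COX5B. Capitals mark the motifs GCATGCG of NRF1, CCGGAAG of ETS proteins and AAGATGG of YY1, searched on both strands.
NDUFS3: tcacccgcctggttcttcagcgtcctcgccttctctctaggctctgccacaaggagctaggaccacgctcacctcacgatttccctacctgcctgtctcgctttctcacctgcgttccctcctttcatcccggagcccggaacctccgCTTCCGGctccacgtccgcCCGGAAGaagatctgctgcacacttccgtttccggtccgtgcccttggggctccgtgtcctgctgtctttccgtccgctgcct
NDUFS6: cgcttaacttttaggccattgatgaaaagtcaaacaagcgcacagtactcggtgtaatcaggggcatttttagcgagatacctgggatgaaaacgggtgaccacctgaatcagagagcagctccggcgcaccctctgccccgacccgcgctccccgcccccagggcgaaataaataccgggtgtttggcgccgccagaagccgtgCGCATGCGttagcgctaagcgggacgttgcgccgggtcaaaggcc
NDUFV1: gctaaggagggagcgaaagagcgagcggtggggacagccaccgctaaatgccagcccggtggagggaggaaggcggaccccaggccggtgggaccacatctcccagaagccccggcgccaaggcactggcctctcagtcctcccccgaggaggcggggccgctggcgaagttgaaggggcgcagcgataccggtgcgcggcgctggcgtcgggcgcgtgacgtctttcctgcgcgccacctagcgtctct
ATP5F1A: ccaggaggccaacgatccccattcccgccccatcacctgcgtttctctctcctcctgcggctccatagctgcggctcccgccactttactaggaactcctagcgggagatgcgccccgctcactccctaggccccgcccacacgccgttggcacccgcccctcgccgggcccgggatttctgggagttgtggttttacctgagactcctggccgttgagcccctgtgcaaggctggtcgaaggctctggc
COX5B: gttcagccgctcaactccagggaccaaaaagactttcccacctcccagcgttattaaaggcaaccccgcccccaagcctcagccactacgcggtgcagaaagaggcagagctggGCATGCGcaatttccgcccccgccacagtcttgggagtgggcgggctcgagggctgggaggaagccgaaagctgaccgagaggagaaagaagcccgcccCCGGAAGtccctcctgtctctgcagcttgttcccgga

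The capitals in NDUFS3 are the ETS motif on each strand, those in NDUFS6 an NRF1 motif that reads on both strands, and those in COX5B an NRF1 and an ETS motif. No motif lies in the bases printed for NDUFV1 and ATP5F1A, though ATP5F1A has an ETS motif elsewhere in its windows and is counted with that motif below. Over the whole windows, the NRF1 motif was in 17.4% of the members' windows and in 3.91% of all 35116 windows, the ETS motif in 25.6% and 10.3%, and the YY1 motif in 22.1% and 5.84%. All members are protein-coding, and over the 22199 windows of coding genes the shares were 4.63% for NRF1, 12.8% for ETS and 6.04% for YY1. At least 1 of the 3 was in 48.8% of the members' windows, in 18.3% of all windows and in 21.2% of coding windows. The ETS and YY1 motifs can share 3 letters. A match of letters is a description of sequence and not a bound site.

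Members with a motif in any of their windows had slightly lower median differences than those without. On CS the median was 0.11 for 14 members with the NRF1 motif and 0.16 for 54 without, 0.13 for 21 with the ETS motif and 0.15 for 47 without, and 0.10 for 18 with the YY1 motif and 0.16 for 50 without. On CSHA the same medians were 0.05 and 0.13, 0.08 and 0.14, and 0.06 and 0.14. The ranges of members with and without a motif overlapped for each motif, and these small gaps were not tested. ATP5F1B and CYC1, which were far lower on CSHA, had no matched window and are in neither group.

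Genes around the respiratory chain were described from further lists. The 16 assembly factors of complex I had median differences of 0.15 for CS and 0.01 for CSHA, where COA1 was lowest at -1.20, NDUFAF3 had -0.82 and NUBPL was highest at 0.24. Of 22 compared assembly factors of complex IV, 19 were higher on CS, against 56.8% of all genes, with a median of 0.17. On CSHA their median was 0.06, from -0.76 for COX10, which makes the heme of complex IV, to 0.46 for SURF1. The 6 assembly factors of complex III had medians of 0.18 and 0.30, from -0.11 for BCS1L to 0.58 for UQCC3 on CSHA. Those of complex II had 0.20 and 0.25 over 4 genes, from -0.56 for SDHAF2 to 0.47 for SDHAF1 on CSHA. Of complex V, 2 of 4 assembly factors were compared, ATPAF2, which helps build the F1 head, at 0.24 and -0.67, and FMC1 at 0.23 and 0.28.

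Of the 13 genes for coenzyme Q synthesis and cytochrome c, 9 were higher on CS and 9 lower on CSHA, against 56.8% and 38.3% of all genes, with medians of 0.11 and -0.15, and COQ6, an enzyme of coenzyme Q synthesis, was lowest on CSHA at -0.62. The 14 genes of the tricarboxylic acid cycle had medians of 0.07 and -0.04, and IDH3B, a subunit of NAD-dependent isocitrate dehydrogenase, was lowest on CSHA at -1.09. Among 15 regulators of mitochondrial biogenesis the medians were 0.11 and 0.16. PPARGC1A, a coactivator of respiratory genes, was highest, with signals of 121, 207 and 207 on TCP, CS and CSHA and differences of 0.52 and 0.85. The gene of the factor NRF1 was lowest on CSHA at -0.81, with signals of 152, 156 and 82.9.

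The 77 mitochondrial ribosomal proteins, which are also nuclear products for the mitochondrion, had median differences of 0.14 for CS and 0.04 for CSHA, from -1.20 for MRPL43 to 0.73 for MRPL2 on CSHA. The 82 cytosolic ribosomal proteins compared had -0.00 for CS and 0.17 for CSHA, from -0.52 for RPL35 to 0.56 for RPS13. The proteasome subunits had 0.04 over 38 genes on CS and -0.05 over 39 on CSHA, from -1.25 for PSMA7 to at least 0.94 for PSMB11. All of these are medians of log2 differences beside 0.04 and 0.13 over all genes.

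**Figure D5:**
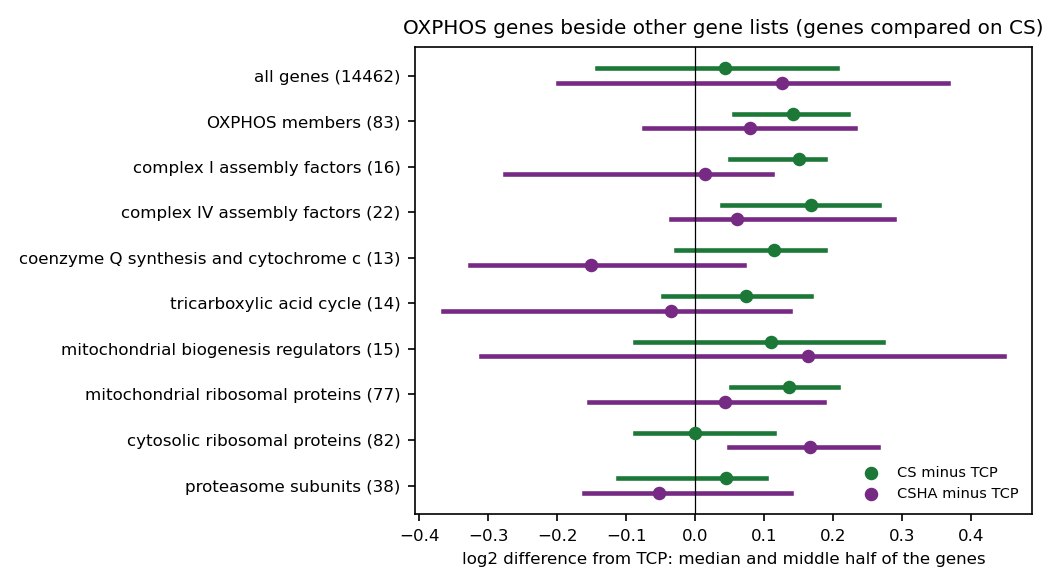
Log2 difference from TCP (horizontal axis) of the gene lists (vertical axis, with the number of genes compared on CS), for CS in green and CSHA in purple, with 1 array per substrate. Points are medians and bars span the interquartile range; the OXPHOS members lie at 0.14 on CS and 0.08 on CSHA, beside 0.04 and 0.13 for all genes.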

How the data were processed

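The arrays held 50599 probes besides controls and carried RNA of HT29 cells grown on TCP, CS or CSHA. The authors deposited the spot intensities of the scanner software, already corrected for background (Feature Extraction 10.7.3.1 per the file headers; another version is named in the methods). A table of log2 values, which the authors had shifted and centred before they were deposited, served as an alternative. RNA isolation and labelling kits differ between the methods and the labels.

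Processed signals were set to a floor of 1. Control spots and spots with an outlier flag were dropped before averaging the spots of each probe. The 75th percentile over the probes of an array was subtracted from its log2 values. Accessions were matched to RefSeq symbols of GRCh38.p14 for names only (30004 probes matched, 20595 did not), and the brightest probe stood for a gene. Genes entered a comparison if 1 array of the pair, or both, had them well above background. If 1 had, the difference is a bound, for which the dim side takes its own signal or, if that is higher, the lowest signal that was well above background there. Thresholds were 1.5-fold and 2-fold.

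Members, lists and thresholds were chosen with earlier results of these data known. The genes named are the highest and lowest of each complex, every member past 1.5-fold, isoform pairs, members whose probes disagree, dim members, and the ends of each list. A gene that this rule selects is not reported here, though it is counted. The calculation was run on simulated data for CS against TCP. With a change of 1.5 on the log2 scale put into 200 of 13972 genes, 200 passed 2-fold in the right direction and 0 others did. The simulated noise was the spread among spots alone, far smaller than that change, so the outcome checks the arithmetic only. It says nothing about smaller differences, bounds or the spread between cultures. Alternatives numbered 13, of which the percentile over all spots was added after seeing the data. Calculations ran in Python 3.11.15 with pandas 2.3.3 and numpy 2.4.6, and in limma 3.58.1 under R 4.3.3.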

Additional observations from a re-analysis of the deposited data

How the results depend on the processing

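Over 13 alternatives the members' median stayed between 0.09 and 0.20 on CS, and, spike-in scaling aside, between 0.02 and 0.09 on CSHA and between -0.09 and -0.02 for CSHA against CS. Their distance from all genes ran from 0.09 to 0.19, from -0.05 to 0.06 and from -0.20 to -0.09. With 1 array per substrate, neither the spread between cultures nor its part in any difference is known. No paired analysis was possible because each substrate has 1 array.

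Under spike-in scaling the medians were 0.52 for CSHA against TCP and 0.34 for CSHA against CS. For CSHA against TCP 32 members were then 1.5-fold higher, 1 was 1.5-fold lower and 1 was 2-fold higher. Of all genes 48.0% were then 1.5-fold higher and 3.79% lower. For CSHA against CS 4 members were 1.5-fold higher and 1 lower, against 33.4% and 2.34% of all genes. Members 1.5-fold higher on CSHA than on TCP numbered 0 under quantile normalization and under the percentile over probes well above background, 3 without a filter on dim probes and 3 with the second brightest probe; 2-fold lower were 3 under each of the first pair, and 2-fold higher 1 under each of the second. For CSHA against CS, members 1.5-fold higher numbered 0 under normexp, quantile normalization, cyclic loess, the filter on all 3 arrays and the deposited values, and 2 without a filter, which also gave 1 at 2-fold; 8 were 1.5-fold lower under normexp. On CS, 1 member was 1.5-fold lower without a filter and 1 higher with the second probe, against 9.52% and 4.14% of all genes. Of all genes, 9.63% were 1.5-fold higher on CSHA than on TCP under quantile normalization and 9.37% under that percentile. Without a filter the share was 12.9%, and with the second probe 11.5%. For CSHA against CS, the shares 1.5-fold higher were 3.64%, 5.57%, 6.33%, 5.11%, 2.98% and 11.0%, in the order named above. Under normexp 5.15% were 1.5-fold lower. Fewer or more dim genes compared changes the counts without a filter by construction. Spike-in scaling and the percentile over probes well above background each shift an array by one constant, so their counts move with that shift. The cause of the other changes was not tested.

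Over the alternatives, 177 of 3242 values of single members had the opposite sign to the reported one. Of these, 33 belonged to differences reported past the spread among spots, out of 1708 such values, and they are given here; the other 144 were of differences within that spread. Under spike-in scaling, which adds one constant per array, CSHA against TCP turned for ATP5F1C (0.00095), ATP5F1E (0.19), ATP5MC1 (0.14), ATP5MJ (0.28), COX4I1 (0.12), NDUFA11 (0.22), NDUFA8 (0.24), NDUFB7 (0.11), SDHB (0.17) and UQCRC1 (0.059). CSHA against CS turned for ATP5F1E (0.16), ATP5MF (0.22), ATP5MK (0.13), COX7B (0.20), NDUFA10 (0.033), NDUFA11 (0.014), NDUFA4 (0.21), NDUFA8 (0.19), NDUFC2 (0.10), NDUFS5 (0.065), NDUFV3 (0.19), SDHB (0.060), SDHD (0.20), UQCRB (0.22) and UQCRQ (0.23). With the second brightest probe NDUFA10 turned on CS (-0.34), COX7A2L (-0.14), NDUFB5 (-0.025) and UQCR10 (-0.15) on CSHA, and NDUFC2 (0.15) and UQCRB (0.22) between the membranes. With the mean over probes NDUFA10 turned on CS (-0.0088) and UQCRB between the membranes (0.033). Under every alternative that gave a value, 62 of 83 members stayed above TCP on CS and 11 below, and 41 of 84 stayed above it on CSHA and 9 below. The 9 include the dim COX6A2, whose value on CSHA is a bound. No such count was made over all genes, so whether a kept sign is particular to the members is not known. In the main setting the bulk of the array leaned upward too, with 56.8% of all genes above TCP for CS and 61.7% for CSHA.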
